A study of Mus musculus with 6 samples.

Results

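Mature inflammatory neutrophils of the mouse fracture callus were taken as the barcodes that held the receptor transcripts of circulating neutrophils together with abundant calprotectin, and few transcripts of secondary granule proteins or of C1q. Barcodes entered the selection when they held 500 or more unique molecular identifiers (UMIs, 1 for each captured transcript) from 200 or more genes, with no more than 10% of them mitochondrial; these are the kept barcodes. It was a member with at least 2 UMIs of Csf3r and Cxcr2 together, at least 10 of S100a8 and S100a9, fewer than 5 of Ltf, Camp and Ngp, and fewer than 3 of C1qa, C1qb and C1qc. Of 42167 kept barcodes (46944 in the files), 2552 were members. Since these 10 genes chose the cells, their levels are given as a description, and a difference from other cells of the callus is not a test.

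The 6 libraries came from femoral fracture calluses at 14 days post-fracture (dpf), with 3 control libraries and 3 libraries labelled knockout, and the methods name as many mice of each genotype. The study's results section gives other numbers of mice, and the labels do not say which mice went into a library. The control label reads wt, and the study's methods describe these mice as Piezo1 f/f. The knockout label reads Col2CreERT; Piezo3-/-, whereas the series design and the methods name Piezo1. As described for the fracture model, the mice were 12-week-old males, control and knockout mice received tamoxifen (75 mg/kg a day for 5 days, starting on day 5 after fracture), and the Col2a1-driven CreERT2 serves to delete Piezo1 in chondrocytes, so neutrophils were not the targeted cells. Piezo1 is a mechanically gated cation channel, and the comparison asks whether neutrophils of the callus differed when the channel was targeted in cartilage.

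Neutrophils are short-lived granulocytes that leave the bone marrow after they have made their granule proteins in sequence, first the primary granule enzymes, then the secondary granule proteins, then gelatinase. Csf3r, the receptor of granulocyte colony-stimulating factor, and Cxcr2, the receptor of ELR chemokines, mark the later stages, while S100a8 and S100a9 encode calprotectin, the most abundant cytosolic protein of the cell. After a fracture they are among the first cells to enter the haematoma, where they release interleukin-1β and chemokines. Il1b lies on chromosome 2 (129364570 to 129371139, minus strand, GRCm38), Csf3r on chromosome 4 (126024550 to 126044440, plus strand) and Cxcr2 on chromosome 1 (74153989 to 74161246, plus strand). S100a8 (90668978 to 90670035, plus strand) and S100a9 (90692632 to 90695721, minus strand) are neighbours on chromosome 3.

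The number of members differed widely. Control libraries 1 to 3 gave 23, 1243 and 405 members, and knockout-labelled libraries 1 to 3 gave 202, 527 and 152. Their summed UMIs were 127968, 3777522 and 1224544 in the control libraries and 2061740, 1573173 and 737822 in the knockout-labelled ones, so the values of control library 1 rest on the fewest transcripts. This library lay at -166 on the first principal component of the members' summed expression (70.9% of the variance), and the other 5 lay between 27.4 and 47.8. The median UMIs per member were 4723, 1783 and 1649 in the control and 5678, 1924 and 2341 in the knockout-labelled libraries. Members of both libraries numbered 1 thus held more UMIs per cell than those of the other 4. Over all kept barcodes the medians of these libraries were the lowest, at 5926 UMIs in control and 6095 UMIs in knockout-labelled library 1. Both libraries were counted with another version of Cell Ranger.

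Some features of the libraries stood apart from their labels. Knockout-labelled library 3 held 419 CPM of Xist in the members (308 UMIs; CPM are UMIs scaled to the same total in the members of each library), and no UMI of the Y-linked genes Ddx3y, Eif2s3y, Uty or Kdm5d, although the methods describe male mice. The other 5 libraries held no Xist UMI in the members and between 80.4 and 160 CPM of Ddx3y. Piezo1 was at 16.0, 26.4 and 20.5 CPM in the members of the control libraries and at 47.0, 24.3 and 49.0 CPM in those labelled knockout, and was not lower with the knockout label. In 12385 collagen-rich stromal barcodes without Ptprc it was at 60.8, 44.1 and 54.1 CPM against 98.9, 41.1 and 43.6 CPM. Whether the counted 3′ end lies outside the deleted part was not tested, so these counts do not check the labels. Across the libraries 222 barcode sequences occurred more than once, and 25 members carried one of them.

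The members were checked against the markers of the name. After each cell was thinned to 500 UMIs, which puts all cells at the same depth, an Il1b UMI was found in 78.3%, 85.8% and 77.5% of members in control libraries and in 68.8%, 63.6% and 63.8% in knockout-labelled libraries. Without thinning the shares were 100%, 96.0% and 91.4% against 97.0%, 88.2% and 90.8%. In stromal barcodes, which should lack the transcript, the thinned share was at most 1.11% (5.63% to 27.4% without thinning, at median depths of 11895.5 to 40593.5 UMIs), and in barcodes of a monocyte gate it lay between 4.16% and 23.3%. Il1b, the only marker of the name that the selection did not use, was therefore well above background in every library. S100a8, in contrast, was found in 2.02% to 22.9% of thinned stromal barcodes. Calprotectin at the selected level was reached by 0.202% to 63.2% of unthinned stromal barcodes, depending on the library. The receptor minimum was reached by at most 1.08% of them, and 28 stromal barcodes were members.

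Ly6g, which encodes the surface antigen used to sort mouse neutrophils, was sparse. It was found in 17.4%, 19.0% and 22.2% of unthinned members in control libraries and in 23.8%, 24.1% and 19.7% in knockout-labelled ones, at 70.8 to 232 CPM, and in 0.331% to 2.84% of stromal barcodes. After thinning the share of members was 3.96% to 8.70%. Immature neutrophils are here the kept barcodes with at least 5 UMIs of Ltf, Camp and Ngp together, at least 10 of S100a8 and S100a9 and fewer than 3 of the C1q genes, with no condition on the receptors. They held a Ly6g UMI in 31.8% to 100% of cells, with median UMIs of 5138.5 to 10793.5 per cell. After thinning their share was 5.25% to 36.4%, above that of the members in 5 libraries and below it in control library 3 (5.25% against 8.395%).

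The thresholds of the selection fell inside continuous ranges for the receptors. Of barcodes that met every other condition, 417 held exactly 2 receptor UMIs and were members, 643 held 1 and 4406 held 0. At the calprotectin limit, 40 members had 10 or 11 UMIs and 45 barcodes had 8 or 9. At the granule limit 64 members had 4 UMIs and 48 barcodes had 5, and at the C1q limit 94 members had 2 UMIs and 30 barcodes had 3. The receptor condition was therefore the one with the most barcodes on either side.

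The most abundant transcripts of the members, by UMIs of 3′ ends and with mitochondrial and ribosomal protein genes left out, were those of calprotectin. S100a9 was at 58165, 37079 and 42865 CPM in control libraries and at 35119, 65134 and 37707 CPM in knockout-labelled ones, and S100a8 at a mean of 41918 CPM over the 6 libraries. Malat1, a nuclear RNA, Tmsb4x, which encodes the actin-binding thymosin β4, and Fth1, the ferritin heavy chain, followed. Retnlg, a resistin-like secreted protein of granulocytes, was at 12048, 6462 and 7434 CPM against 4455, 12466 and 8843 CPM. The groups overlapped for all of these genes. Srgn, the core proteoglycan of granules, and Tyrobp, an adaptor of activating receptors, were also among the 15 most abundant genes, and so were Cxcl2, S100a6 and Actb.

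Csf3r, a selecting gene, was at 1566, 1025 and 983 CPM in control libraries and at 520, 846 and 491 CPM in knockout-labelled ones. Cxcr2, the other selecting receptor, was at 1422, 944 and 558 CPM against 684, 649 and 221 CPM. The control libraries were all higher for Csf3r, and the groups overlapped for Cxcr2. The median member held 15, 5 and 4 UMIs of both receptors in the control libraries and 11, 4 and 3 in the knockout-labelled libraries, closer to the minimum of 2 in libraries 2 and 3 of both groups than in both libraries numbered 1.

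Retnlg was spread unevenly among the members. The 10% of members with the most Retnlg UMIs held between 40.2% and 65.1% of a library's Retnlg UMIs, whereas the same share for Il1b lay between 20.8% and 31.0%. The median member of the control libraries carried 30, 15 and 9 Il1b UMIs, and that of the knockout-labelled libraries carried 16, 5 and 9. Unlike Csf3r, whose median was between 2 and 9 UMIs, Il1b spanned up to 125 UMIs in a single member.

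The collagen genes Col1a1, Col1a2 and Col2a1 and the matrix gene Sparc were also among the 15 most abundant genes. Transcripts of the chondrocyte, osteoblast and fibroblast lists together made up 1.95%, 2.07% and 3.13% of the members' UMIs in control libraries. In knockout-labelled ones they made up 5.06%, 3.65% and 5.70%. The groups did not overlap, and every knockout-labelled library held more. In 284 members these transcripts exceeded 2% of the UMIs of the cell, and these members are called stromal-rich. The most abundant genes of these lists were Col2a1, Col1a1 and Col3a1, in that order of lists. Col2a1 was at 34.5 CPM in knockout-labelled library 2 but at 1648 to 7623 CPM in the other 5 libraries. The comparisons of genotype labels below were also made without stromal-rich members, which leaves 11 members in control library 1 and 69 in knockout-labelled library 3.

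Markers of other leukocytes were present at lower levels. The monocyte list had the highest sums of these, led by Fn1. It summed to 2788, 3025 and 3863 CPM in control libraries and to 5492, 1944 and 3163 CPM in knockout-labelled ones. The dendritic list summed to 1606, 772 and 429 CPM in control libraries and to 102, 936 and 1175 CPM in those labelled knockout, led by Cd74, the invariant chain of MHC class II. The macrophage list without C1q, led by Apoe at 279 to 775 CPM, summed to 618 to 1190.5 CPM. Of the T and NK cell list the sum was 0 to 123 CPM, with Nkg7 as its most abundant gene, and of the B cell list 83.0 to 424 CPM, with Igkc. The eosinophil list lay between 14.97 and 184 CPM, led by Ear2. At least 2 UMIs of the monocyte genes Ccr2, Ly6c2, F13a1 and Csf1r were found in 474 members, which were 39.1%, 13.5% and 11.9% of those in control libraries and 51.5%, 23.9% and 12.5% of those in knockout-labelled ones. Hbb-bs, a globin of red cells, stood at 1205 CPM in control library 3, at 156 CPM in knockout-labelled library 2 and at 15.2 CPM or less in the other 4.

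Transcripts of granule proteins were present in the members at uneven levels. Lcn2, a secondary granule protein that binds siderophores, was at 1087, 1092 and 1341 CPM in control libraries and at 2100, 1601 and 911 CPM in those labelled knockout. The primary granule enzymes Prtn3, Elane and Mpo, known from promyelocytes, had no UMI in control library 1 and lay between 31.3 and 1126 CPM in the other libraries. Elane, the neutrophil elastase, was at 654 and 463 CPM in control libraries 2 and 3 and at 687, 1126 and 120 CPM in those labelled knockout.

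Members made up 0.572% (95% Wilson interval 0.381 to 0.856), 14.2% (13.5 to 14.97) and 4.59% (4.17 to 5.04) of kept barcodes in control libraries 1 to 3, and 6.98% (6.103 to 7.96), 5.11% (4.70 to 5.55) and 2.06% (1.76 to 2.41) in knockout-labelled libraries 1 to 3; the intervals cover counting error only. The lowest and the highest share both belonged to control libraries. The mean was 6.46% ± 7.02 (SD, n = 3) in control and 4.72% ± 2.48 (SD, n = 3) in knockout-labelled libraries, a difference of -1.74 percentage points (two-sided exact permutation test, p = 0.9; the smallest p that 3 against 3 allows is 0.1). Within libraries of the same number the difference was 6.40, -9.11 and -2.52 percentage points for numbers 1 to 3, so its sign was not the same. A share of barcodes also moves with the recovery of every other cell type.

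**Figure D1:**
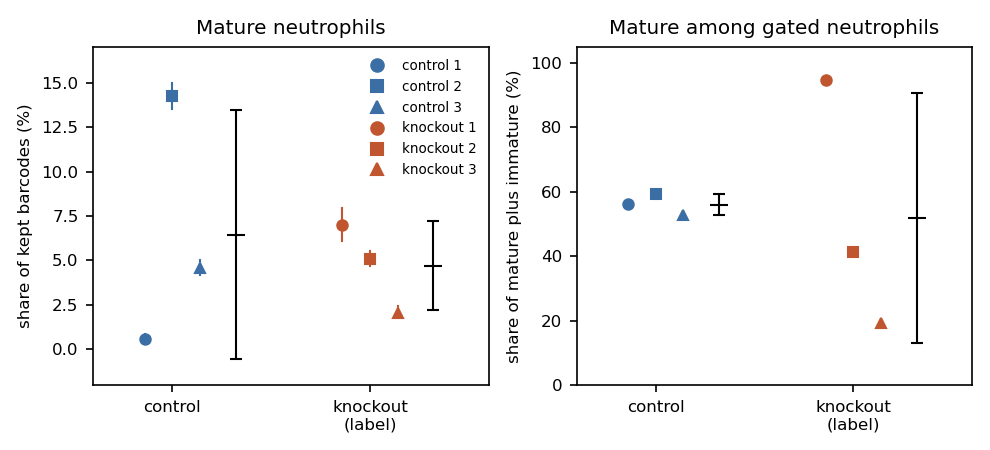
Share of mature neutrophils among kept barcodes (left, %) and among mature plus immature gated neutrophils (right, %), with 1 point per library, Wilson 95% intervals of counting error as thin lines on the left, and group mean ± SD (n = 3) in black. Control libraries span 0.572% to 14.2% on the left, and libraries labelled knockout span 19.2% to 94.8% on the right, around the control libraries.

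Among all gated neutrophils, mature members were 56.1%, 59.2% and 52.8% in control libraries and 94.8%, 41.3% and 19.2% in knockout-labelled libraries. The knockout-labelled libraries lay on both sides of the control libraries. Means were 56.0% ± 3.21 (SD, n = 3) and 51.8% ± 38.9 (SD, n = 3), with a difference of -4.26 percentage points (two-sided exact permutation test, p = 0.9). Knockout-labelled library 1 held 11 immature neutrophils and control library 1 held 18, so the share of control library 1 rests on few cells. The immature gate counted unthinned UMIs. After thinning, S100a8 was found in 100%, 82.7% and 94.5% of its barcodes in control and in 100%, 72.8% and 77.9% in knockout-labelled libraries. It was found in 94.6% to 97.0% of thinned members. Camp was found in 9.84% to 65.9% of unthinned stromal barcodes. How many barcodes of the immature gate were not neutrophils was not tested. The immature group of knockout-labelled library 3 held 638 cells, of which 409 were not stromal-rich, and that of knockout-labelled library 2 held 750, of which 565 were not. Without stromal-rich cells the control libraries were further apart, at 39.3%, 62.2% and 53.5%, and the difference was -0.57 points in this share and -2.64 points in the share of kept barcodes.

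Mature were compared with immature neutrophils within each library. The values below are log2 ratios of CPM + 10 within each library, given without a test because the selection used genes of this contrast. They use the same immature gate, and the part of other cells in it was not tested. Cxcl2, a chemokine ligand of Cxcr2, had a mean log2 ratio of 4.01 ± 0.90 (SD, n = 6), and Il1b of 3.999 ± 1.29. Clec7a, which encodes the β-glucan receptor Dectin-1, was at 3.44 ± 1.11, followed by Ifitm1, a transmembrane protein of the interferon-induced family, the chemokine Ccl3, the hydroxycarboxylic acid receptor Hcar2, Ccrl2 and Gm5150. All 8 were higher in the mature cells of all 6 libraries. On the other side stood Chil3, a chitinase-like protein, Cd177, the granule lectin Fcnb, the protease inhibitor Serpinb1a, Itgb2l, Lcn2 at -2.29 ± 0.75, Cebpe and Adpgk. Cebpe encodes the transcription factor of the secondary granule stage and was at 10.9 to 40.2 CPM in mature cells, at a mean of 142 CPM in immature ones.

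**Figure D2:**
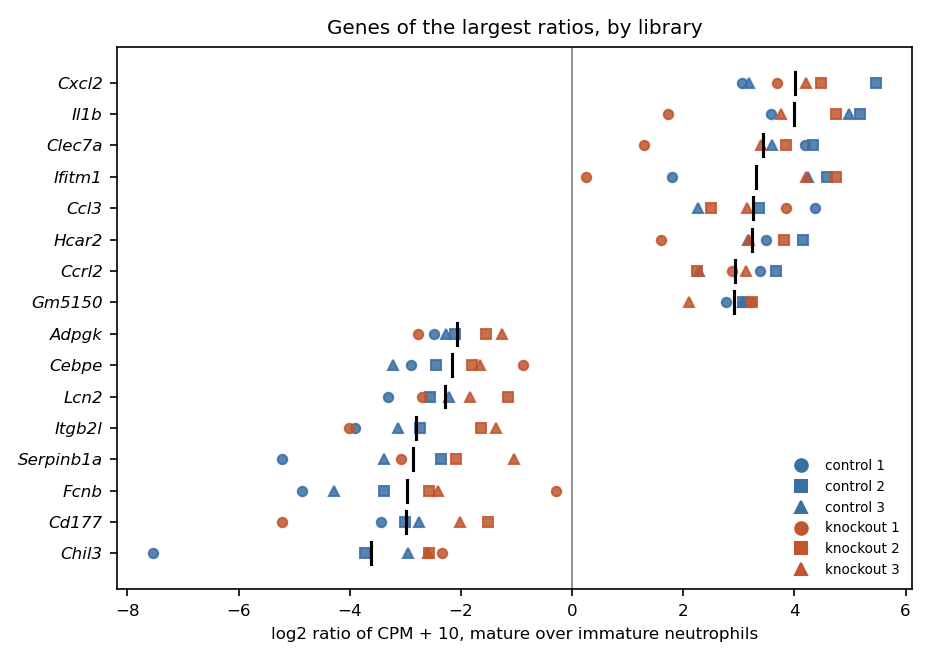
log2 ratio of CPM + 10 in mature over immature neutrophils for the 8 genes of largest and the 8 of smallest mean ratio outside the selecting genes, with 1 point per library and the mean of 6 libraries as a black bar. Il1b and Cxcl2 average 3.999 and 4.01, and Chil3 averages -3.62 with its lowest point in control library 1.

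By list, the cytokines and chemokines had a median log2 ratio of 1.58 over 17 genes of at least 20 CPM in either group, with 11 higher in mature cells of all 6 libraries and 0 lower. The median over all 6321 genes of that level was 0.16, with 1144 higher and 181 lower in all 6. The aged or tissue neutrophil genes, among them Cxcr4, had a median of 1.26, with 7 of 8 higher in all 6 libraries, and the interferon-stimulated genes a median of 1.00, with 15 of 30. Immediate early and heat shock genes, known to respond to tissue dissociation, also had a median of 1.04, with 15 of 22 higher. Markers of other leukocytes were higher in the mature cells as well, with medians of 1.37 for monocytes (6 of 10 higher in all 6 libraries), 1.57 for dendritic cells (3 of 4) and 0.70 for macrophages without C1q (4 of 7), and their part in these ratios was not tested. The 16 gelatinase granule and secreted proteins had a median of 0.37, with 1 higher and 3 lower in all 6. Secondary granule proteins outside the selecting genes stood at -2.29, with 5 of 7 lower in all 6. Without stromal-rich cells in either group the medians were 1.54 for cytokines and chemokines, 1.21 for aged or tissue neutrophil genes, 0.97 for interferon-stimulated genes, 1.33 for immediate early and heat shock genes, -2.46 for secondary granule proteins and 0.20 over all genes.

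Between genotype labels, no gene passed the threshold in mature neutrophils with edgeR. Of 9544 genes tested with edgeR's quasi-likelihood test on UMIs summed per library, 0 had an adjusted p under 0.05 (0%), and 309 (3.24%) had an unadjusted p under 0.05. DESeq2 called 1 of the same genes, and 220 had an unadjusted p under 0.05. In summed UMIs, fewer cells that hold a transcript and less of it per cell cannot be told apart. With all 6 libraries, groups of CPM did not overlap for 518 genes (5.43%) that were lower and for 424 genes (4.44%) that were higher in the knockout-labelled libraries. These shares are the background for the counts of listed genes below. Each gene value that follows is a measurement without a call in edgeR, where the adjusted p was 0.9999 for each of them.

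Il1b was at 4874, 6012 and 4170 CPM in the control libraries and at 2113, 2056 and 2347 CPM in the knockout-labelled libraries. All 3 control libraries lay above all 3 knockout-labelled ones. Its log2 fold change was -1.13 ± 0.39 (SE; edgeR, unadjusted p = 0.0157, adjusted p = 0.9999). Without stromal-rich members it was -1.18 ± 0.38, again with groups that did not overlap. Cxcl2 was at 5880, 6213 and 3952 CPM against 5063, 1344 and 4492 CPM, and these groups overlapped.

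Zfp36 encodes tristetraprolin, which binds AU-rich elements of cytokine transcripts and promotes their decay, and lies on chromosome 7 (28376784 to 28380253, minus strand). It was at 1398, 1349 and 1238 CPM in control libraries and at 657, 393 and 327 CPM in knockout-labelled libraries. The knockout-labelled libraries all lay well under the lowest control library, with a log2 fold change of -1.48 ± 0.38 (SE; edgeR, unadjusted p = 0.00268, adjusted p = 0.9999). Dusp1, a phosphatase that turns off MAP kinases, was at 2301, 2329 and 1710 CPM against 1032, 1017 and 973 CPM, and its log2 fold change was -0.98 ± 0.37. Both are also immediate early genes. Pde4b, a phosphodiesterase that degrades cyclic AMP, was at 416, 270 and 191 CPM against 129, 83.0 and 110 CPM, and its groups did not overlap either.

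Cebpb, a transcription factor of emergency granulopoiesis and of inflammatory gene expression, was at 2181, 3160 and 2444 CPM in control libraries and at 1211, 661 and 1716 CPM in those labelled knockout. Mcl1, an anti-apoptotic protein on which neutrophil survival depends, was at 2101, 1896 and 1512 CPM against 1355, 906 and 811 CPM. Cxcr4, the receptor of Cxcl12 and a gene of aged neutrophils, was at 583, 395 and 367 CPM against 233, 105.3 and 178 CPM. None of these groups overlapped, and the log2 fold changes were -1.06 ± 0.44, -0.78 ± 0.37 and -1.32 ± 0.38 (SE). With cells thinned to 500 UMIs those of Cebpb and Mcl1 were -0.70 and -0.35, and without members that held monocyte genes that of Mcl1 was -0.50. Clec7a was at 1454, 825 and 482 CPM in control libraries and at 240, 467 and 268 CPM in the others, separated by a narrow gap between control library 3 and knockout-labelled library 2, and its log2 fold change of -1.36 was -0.76 with thinned cells. Il1b in turn was at -0.74 with thinned cells. Beside Zfp36, Pde4b and Cxcr4, the 5 lower genes of smallest unadjusted p at a mean of at least 50 CPM included Ppp1r3d, a subunit that directs a phosphatase to glycogen, with a log2 fold change of -1.62 ± 0.45, and the phospholipid flippase Atp8a1, with -1.08 ± 0.31.

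**Figure D3:**
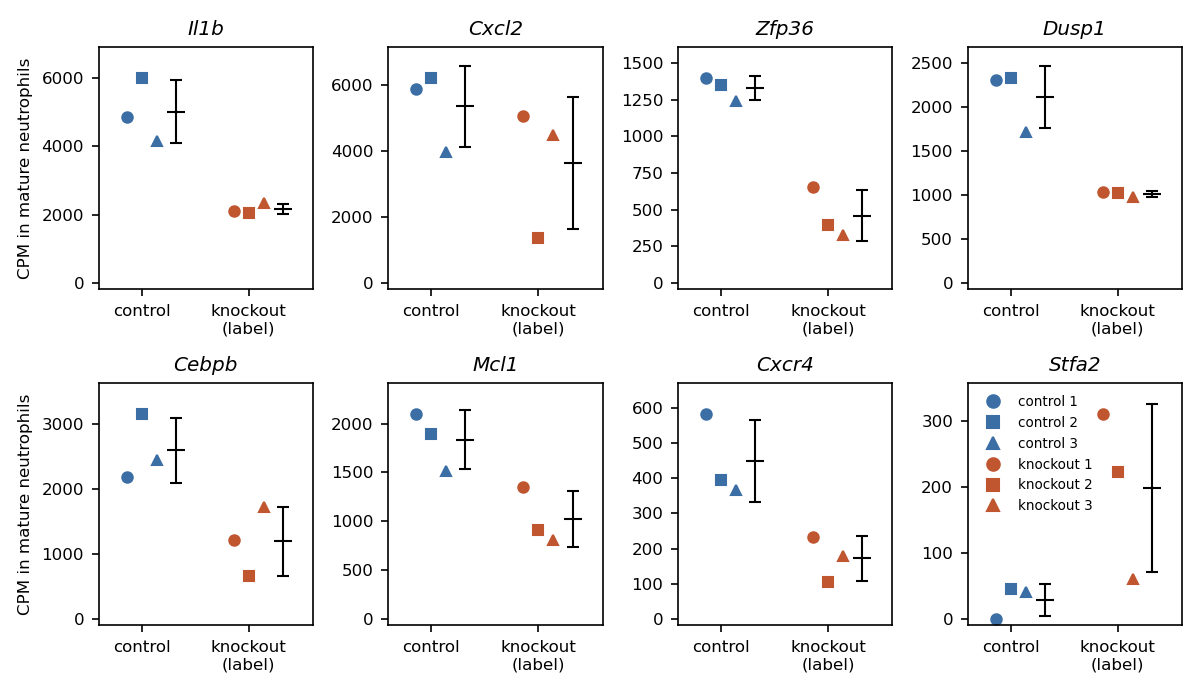
CPM of 8 genes in the summed UMIs of mature neutrophils, with 1 point per library, group mean ± SD (n = 3) in black and a linear axis from 0 for each gene. Il1b lies between 4170 and 6012 CPM in control libraries and between 2056 and 2347 CPM in libraries labelled knockout, whereas the groups of Cxcl2 overlap.

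In the opposite direction, the 5 genes of smallest unadjusted p at a mean of at least 50 CPM were Bambi, Col11a2, Ptgis, Creb3l1 and Stfa2. Stfa2, a stefin A cysteine protease inhibitor of granulocytes, was at 0, 45.3 and 40.2 CPM in control libraries and at 311, 223 and 59.9 CPM in knockout-labelled ones, with a log2 fold change of 2.53 ± 0.68 (SE). Stefin A genes are near-identical copies, and the counting could split reads between them. The other 4 genes were more abundant in stromal barcodes than in the members. Col11a2, a cartilage collagen chain, was at 200, 224 and 177 CPM against 559, 340 and 652 CPM in the members. In stromal barcodes it was at a mean of 1372 CPM. Its groups overlapped without stromal-rich members, but Col11a2 is itself on a list that defines these members, so this is not an independent check. Ptgis, the prostacyclin synthase, reached 361 CPM in knockout-labelled library 3 and 65.7 CPM or less elsewhere.

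Tagln, an actin-binding protein of smooth muscle, was the gene that DESeq2 called, and it was named after its values were seen. It was at 16.0, 103 and 140 CPM in control libraries and at 14.3, 12.1 and 10.9 CPM in knockout-labelled libraries, with 2 UMIs in control library 1. Control library 1 lay next to the knockout-labelled libraries. In edgeR its log2 fold change was -2.88 ± 0.54 (SE; adjusted p = 0.9999). Without stromal-rich members its log2 fold change was -1.80, the groups overlapped and neither tool called it, and with at least 1 receptor UMI in place of 2 it was -0.89.

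More neutrophil-list genes had negative than positive log2 fold changes. Of 254 genes on the neutrophil lists, without the selecting genes, 239 were tested and 0 were called. Of the tested ones 162 had a negative log2 fold change, beside 4214 of all 9544 genes, the background for the counts of negative genes below. The median was -0.26, beside 0.06 over all genes tested. Groups did not overlap for 33 genes (13.8%) that were lower and for 3 (1.26%) that were higher, beside 5.43% and 4.44% of all genes. Without stromal-rich members 26 of 234 (11.1%) were lower and 6 were higher without overlap, beside 6.31% and 5.53% of all genes, and the median was -0.18. The median was closer to 0 in some alternatives. It was -0.02 with every cell thinned to 500 UMIs, -0.06 without members that held monocyte genes and -0.10 without knockout-labelled library 3, the library with Xist, beside 0.07, 0.07 and 0.06 over all genes. Only 2293 genes were tested with thinned cells. Each list median given with thinned cells therefore covers only the listed genes among these, not the same set as the main median.

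Counted without the selecting genes, the 14 tested chemoattractant and adhesion receptors had a median of -0.50, with 13 negative, and of -0.40 without stromal-rich members and -0.12 with cells thinned to 500 UMIs. Groups were lower without overlap for Cxcr4, for Itgb2, the β2 integrin chain, and for Ptafr, the receptor of platelet-activating factor, whose groups overlapped once stromal-rich members were left out. The 16 cytokine receptors had a median of -0.47 with 15 negative, and of -0.17 with thinned cells. Among them Tnfrsf1a, a TNF receptor, was at 391, 348 and 292 CPM against 253, 209 and 241 CPM.

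Cytokines and chemokines had a median of -0.53 over 19 genes, of which 15 were negative, and of -0.25 over 17 genes, of which 11 were negative, without stromal-rich members. Beside Il1b, the groups were lower without overlap for Osm, Csf1, Tnfsf14 and Ptgs2. Osm, oncostatin M, an interleukin-6 family cytokine, was at 336, 228 and 181 CPM against 50.4, 112 and 95.3 CPM. Ptgs2, the inducible cyclooxygenase, was at 360, 366 and 273 CPM against 185, 158 and 143 CPM, and its groups overlapped without stromal-rich members.

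The 10 aged or tissue neutrophil genes had a median of -0.73 with 9 negative, and of -0.70 without stromal-rich members and -0.62 with thinned cells. The 19 tested transcription factors had a median of -0.37 with 15 negative, and of -0.50 and -0.34 in the same alternatives. Among the factors Klf2, a Krüppel-like factor, Fosl2, an AP-1 subunit, and Mxd1, a MAX partner of mature granulocytes, were lower without overlap, as Cebpb was, with and without stromal-rich members. Irf1 was lower without overlap only when these members were included. Klf2 was at 1662, 1272 and 1409.9 CPM in control libraries and at 919.8, 575 and 1081 CPM in those labelled knockout.

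Of 13 inflammasome and pyroptosis genes 9 were negative, with a median of -0.23, and of -0.42 without stromal-rich members and -0.65 with thinned cells. The sensor Nlrp3 itself was at 415, 369 and 254 CPM against 270, 173 and 215 CPM, and these groups overlapped. Pattern recognition and Fc receptors had a median of -0.36 over 18 genes, and of -0.12 without stromal-rich members and -0.15 with thinned cells. Among them Tlr2, a receptor of bacterial lipoproteins, was at 407, 341 and 225 CPM against 159.7, 137 and 135 CPM. The 6 tested NADPH oxidase genes had a median of -0.38, and of -0.20 without stromal-rich members and 0.22 with thinned cells. The 17 survival and apoptosis genes had a median of -0.14, and of -0.26 without stromal-rich members. NF-κB targets had a median of -0.24, and of -0.04 with thinned cells, with 0 of 21 without overlap in either direction.

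Lists of granule proteins, glycolysis and interferon-stimulated genes differed in the sign of their medians. The medians were 0.34 for the 7 secondary granule proteins outside the selecting genes, 0.07 for the 16 gelatinase granule and secreted proteins and -0.09 for the 7 tested primary granule proteins, and 0.93, 0.76 and 0.42 with thinned cells. In the gelatinase and secreted list Stfa2 and the related BC100530 were higher without overlap, and Adam8 was lower only with stromal-rich members included. The 24 glycolysis and hypoxia genes had a median of 0.22, with Gapdh at 871, 844 and 893 CPM against 1429, 1158 and 1162 CPM, higher without overlap. Pfkfb4, an enzyme that sets the level of an activator of glycolysis, was at 79.9, 79.2 and 98.5 CPM against 46.0, 76.6 and 40.8 CPM, lower without overlap, and its groups overlapped without stromal-rich members. The 37 interferon-stimulated genes had a median of -0.22, of -0.04 without stromal-rich members and of 0.41 with thinned cells.

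**Figure D4:**
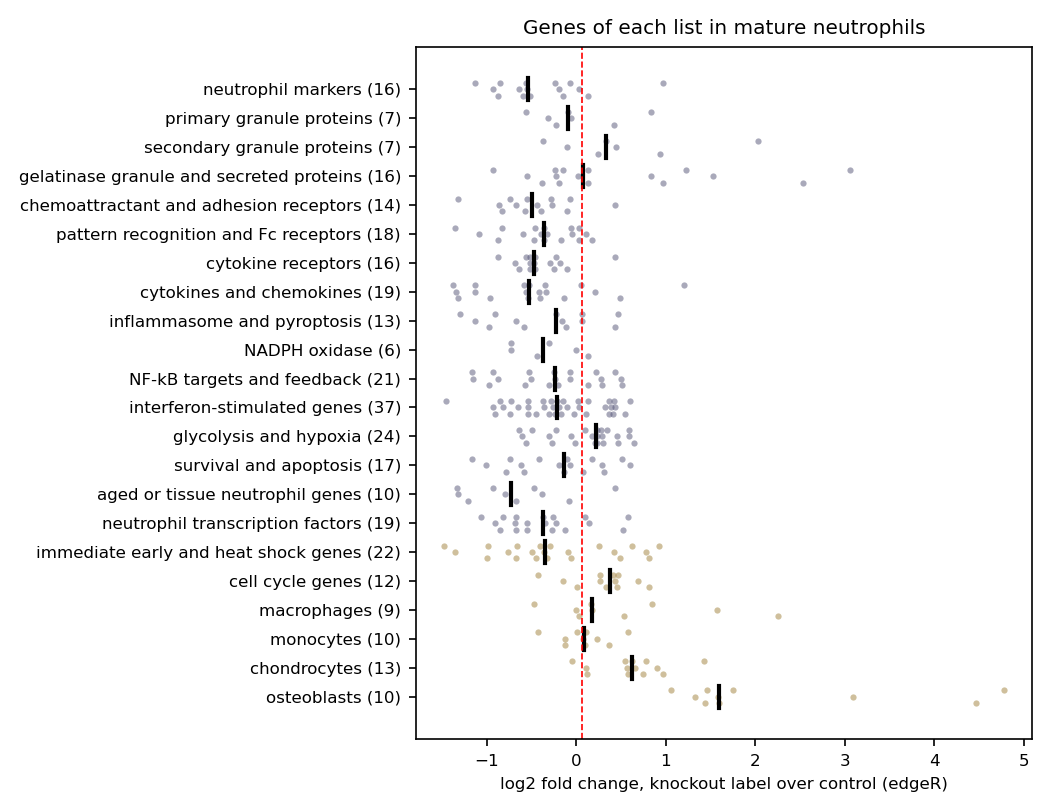
log2 fold change (edgeR, knockout label over control, x axis) of each tested gene outside the selecting genes, 1 point per gene, by list with the number tested in brackets; black bars are list medians and the dashed red line is the median of all 9544 genes tested, 0.06. The chemoattractant receptor, cytokine receptor, cytokine and aged neutrophil lists have medians of -0.73 to -0.47, and the osteoblast list stands at 1.59.

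Transcripts of other cells and of early response genes are given beside these values, and 0 of them were called in edgeR. The osteoblast list summed to 6655, 10900.5 and 17176 CPM in the members of control libraries and to 28323, 34467 and 32555 CPM in those labelled knockout, with groups that did not overlap. All 10 of its genes had a positive log2 fold change with a median of 1.59, and 7 groups were higher without overlap. Without stromal-rich members the sums were 5102, 2214 and 3172 CPM against 5585, 6969 and 7337 CPM, still without overlap. Of the 6 genes then tested 0 had groups without overlap, and their median was 1.08. This list is one of those that define stromal-rich members, so lower levels without them were built into the selection and are not an independent check. The chondrocyte list, in contrast, was at 1059 CPM in knockout-labelled library 2 and at 4730 to 20597 CPM elsewhere.

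Immediate early and heat shock genes summed to 18264.5, 15161 and 14161 CPM in control libraries and to 12624.5, 9397 and 13147.5 CPM in those labelled knockout, with a median log2 fold change of -0.35 over 22 genes. The most abundant of them was Junb, an AP-1 subunit. Groups were lower without overlap for 5 of them, namely Zfp36, Dusp1, Btg2, Nr4a1 and Ier5, the last only with stromal-rich members included. Of 9 macrophage genes without C1q 7 were positive with a median of 0.17, and only Ms4a7 was higher without overlap, which was lost without stromal-rich members. C1qb, capped by the selection, was at 0, 12.8 and 10.7 CPM against 20.8, 71.5 and 35.4 CPM, and its groups did not overlap without stromal-rich members either. The 8 endothelial genes were all positive with a median of 0.65, and of 1.06 without stromal-rich members. The 12 cell cycle genes had a median of 0.37, and of 0.90 without stromal-rich members and 0.03 with thinned cells. The 5 tested pericyte and smooth muscle genes were all negative with a median of -1.65. With thinned cells the median was 0.27 over the genes of this list that were tested there. The part of stromal transcripts, of early response to dissociation and of macrophage transcripts in the lower levels of Il1b and the other neutrophil genes was not tested.

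**Figure D5:**
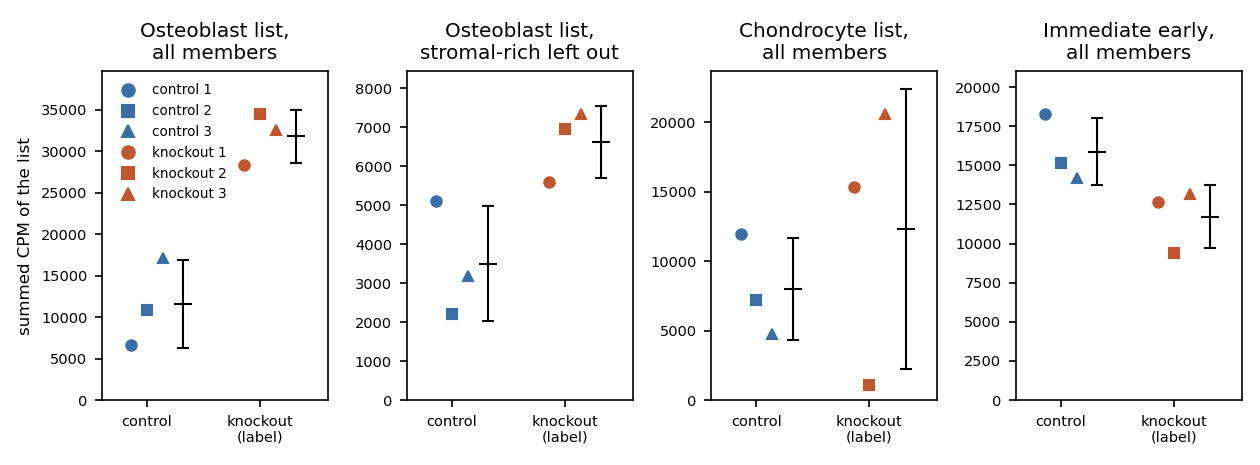
Summed CPM in mature neutrophils of the osteoblast list (all members, then without stromal-rich members), of the chondrocyte list and of the immediate early and heat shock list, with 1 point per library, group mean ± SD (n = 3) in black and linear axes from 0. The osteoblast list lies between 28323 and 34467 CPM in libraries labelled knockout and at 17176 CPM or less in control libraries.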

How the data were processed

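Single-cell 3′ libraries (10x Chromium V3) of fracture calluses, 6 in all, were analysed. The authors deposited UMI counts per gene and barcode, made with Cell Ranger 6.1.1 (number 1 of both groups) or 6.1.2 per the file headers, and their processing notes name GRCm38 and Seurat; the filter on cells in the study's own analysis is not given in the sources used here. Libraries held 57626530 to 103784364 UMIs. Number 3 of both groups listed 55357 genes and the others 55450; the 52081 shared genes, with 97.9% to 99.7% of UMIs, were used.

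UMIs were summed per library and tested by the quasi-likelihood method of edgeR 4.0.16 after filterByExpr and TMM, with Benjamini-Hochberg adjustment and a threshold of 0.05. The SE is the size of the log2 fold change divided by the square root of F. CPM used summed UMIs without TMM. Shares were compared with two-sided exact permutation tests over 20 assignments in scipy 1.17.1. P-values measure the spread between these libraries. The edgeR script was tested on simulated data. Changes of log2 size 1 were not recovered there, so the absence of calls does not show that changes of that size were absent. Gene positions are from GENCODE M21.

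No doublets were removed; Scrublet scores (scanpy 1.11.5) were used for an alternative. The genes named were the selecting genes and Il1b, the 15 most abundant outside mitochondrial and ribosomal genes, up to 4 most abundant genes of each list, the 5 higher and 5 lower of smallest unadjusted p at 50 CPM or more when none was called, and the 8 largest and smallest ratios to immature neutrophils at 100 CPM or more. Named in addition, with their values known, were Ly6g, Piezo1, Xist, the Y-linked genes, Tagln and some listed genes whose groups did not overlap. The monocyte gate took kept barcodes with at least 3 UMIs of Ccr2 and Ly6c2, fewer than 2 of the receptors, fewer than 5 of the granule genes and fewer than 3 of C1q. Stromal barcodes had at least 100 collagen UMIs and no Ptprc. The members and the gene lists were chosen with earlier results of these data known. Alternatives were other limits of the selection and of the filter on cells, members left out, each library left out, a replicate block, DESeq2 1.42.0, no filter on low counts, no TMM and thinning.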

Additional observations from a re-analysis of the deposited data

How the results depend on the processing

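In edgeR no alternative with a filter on low counts called a gene; the smallest adjusted p of these was 0.0913, without control replicate 1. Without the filter 77 of 21963 genes were called, 56 higher and 21 lower with the knockout label, and DESeq2 called 1 gene. Correlations of deviations were 0.07, -0.11 and 0.13 for replicate numbers 1 to 3 and did not show the numbers as pairs. Number 1 of both groups did share a Cell Ranger version, and number 3 of both groups a gene list. With a replicate block 0 genes were called and 456 had an unadjusted p under 0.05. The share of kept barcodes differed by -4.69 to 2.14 percentage points when each library was left out, and reversed without control replicate 2 (2.14). The share among gated neutrophils differed by -25.8 to 12.01 points, and reversed without knockout replicate 2 (0.998), without knockout replicate 3 (12.01) and without number 3 of both groups (10.4). With the replicate block the differences were -1.74 and -4.26 points (exact permutation within numbers, p = 0.75 and 1), and no p in any alternative was under 0.2. The count of neutrophil-list genes lower without overlap, 33 (13.8%), was 39 to 79 (16.3% to 33.1%) with a library left out, beside 7.65% to 18.1% of all genes, and that of genes higher without overlap, 3, was 4 to 14, the most without knockout replicate 3 (5.86%, beside 6.72% of all genes); these alternatives were chosen after seeing the data, as were those without stromal-rich members. The log2 fold changes of 19 genes kept their sign in every alternative that gave one, from -1.44 to -0.74 for Il1b and from -1.72 to -1.11 for Zfp36. Many of these genes were named for a small unadjusted p or for groups that did not overlap, so a kept sign was largely fixed by that choice. Tagln passed the threshold in 2 alternatives, and Ptgis and Stfa2 in 1. The cause of these differences was not tested. Control replicate 1, with 23 members of which 12 were stromal-rich, limits what low genes can show.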
